A study of Mus musculus with 5 samples.

Results

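The 8 genes described here encode subunits of intermediate filaments. They are the neurofilament genes Nefh, Nefm and Nefl, the neuronal filament genes Prph and Ina, and Vim, Gfap and Nes, whose products are filaments of glial, endothelial and progenitor cells. They were chosen by symbol, and all 8 were found among the 17267 gene rows of the count table, with 1 row each. The data are single-cell RNA counts from lumbar dorsal root ganglia, the clusters of sensory nerve cell bodies beside the spinal cord, of 5 untreated wild-type C57BL/6 mice aged 18 weeks, 3 males and 2 females. Each mouse gave 1 library, and each of the 3352 cells carried 1 of 14 type names given by the authors, which were 12 neuron types, satellite glia and endothelial cells. The 5 libraries held 164, 539, 474, 805 and 1370 cells and 13050375, 42666954, 28667742, 51281229 and 88886919 unique molecular identifiers (UMIs). There was 1 condition, so the comparisons are between types within the same mice. The sex of each library was not assigned, and the cells had passed enzymatic dissociation and a density gradient. Across the libraries, 7 cell barcodes occurred in more than 1 library.

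Intermediate filaments are unbranched cables that give cells mechanical strength. In neurons, Nefl forms the core of the neurofilament, and Nefm and Nefh add long side arms; neurofilaments fill the axons of large myelinated sensory neurons, where their content goes with axon calibre. Peripherin, encoded by Prph, is the filament subunit of peripheral neurons and is widely used to mark small unmyelinated sensory neurons, while alpha-internexin, encoded by Ina, is best known from central neurons.

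Levels are given as UMIs per 10⁶ UMIs of a type in a library (CPM), as mean ± SD over 5 libraries. The NF types are NF_Calb1, NF_Pvalb and NF2_Ntrk2.Necab2, the NP types are NP_Nts, NP_Mrgpra3 and NP_Mrgprd, and the PEP1 types are PEP1_Dcn, PEP1_S100a11.Tagln2 and PEP1_Slc7a3.Sstr2. The types came from clusters of these same cells, made on variable genes that may include the 8. The tests below therefore give the size of differences between types as they were named. The paper describes the NF types as neurons containing neurofilament and defined types from canonical or cluster-specific genes. Higher Nefh, Nefm and Nefl in NF thus goes with the class name and is not an independent result. Comparisons of classes average log levels over the types of a class. A gene was called different where edgeR's quasi-likelihood test gave a Benjamini-Hochberg adjusted p under 0.01 over the 11886 genes tested and a difference of at least 2-fold. All 8 genes were among those tested.

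The type names were checked against 7 lists of marker genes. The 5 neuron markers summed to between 5775 ± 955 CPM in Th and 10186 ± 475 CPM in NF_Pvalb, against 451 ± 186 CPM in satellite glia and 482 ± 201 CPM in endothelial cells. Satellite glia held 90719 ± 10415 CPM of the 6 satellite glia markers, most of it Apoe with 78916 CPM, and endothelial cells held 9022 ± 1451 CPM of the 5 endothelial markers, led by Cldn5 with 4315 CPM. The satellite glia list also reached 5571 ± 5719 CPM in endothelial cells, and between 156 and 731 CPM in the neuron types. The endothelial mean was raised by library 5, which held 15254 CPM from 7 cells, the others between 1527 and 6156 CPM. Neurons, satellite glia and endothelial cells therefore carried the markers of their broad class, none of which was at 0 there, while the genes in the names of the neuron types were not checked. The Schwann cell list reached 1743 ± 250 CPM in Th, where it was almost all Pmp22 with 1531 CPM, and 1524 ± 381 CPM in satellite glia, where Mbp led with 559 CPM. Fibroblast markers reached 105 ± 64.6 CPM in satellite glia, led by Lum with 56.9 CPM, and a mean of at most 6.18 CPM in another type. The mean of the macrophage markers did not pass 12.8 CPM in any type, and in satellite glia Csf1r, Cx3cr1 and Aif1 were at 0. In single libraries the macrophage sum reached up to 46.2 CPM, in endothelial cells of library 5. Mural cell markers had their highest means in endothelial cells with 259 ± 250 CPM and in Th with 179 ± 55.8 CPM, led by Rgs5 in both. In endothelial cells library 1, with 3 cells, held 704 CPM and the others 124 to 175 CPM. The libraries of Th held 114 to 253 CPM, so no order of these types is given.

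Nefh, the subunit with the longest side arm, separated the neuron types most widely among the 3 neurofilament genes. In NF_Pvalb it reached 7275, 5222, 5570, 4571 and 5027 CPM in libraries 1 to 5. In NF_Calb1 the values were 5004, 6665, 5544, 4572 and 4969 CPM. PEP2_Htr3a.Sema5a held 3006, 2842, 2870, 2253 and 2647 CPM. All libraries of NF_Pvalb and NF_Calb1 thus lay above all libraries of PEP2_Htr3a.Sema5a, while NF_Pvalb and NF_Calb1 overlapped. NF2_Ntrk2.Necab2 came next with 1627, 1932, 1712, 1899 and 1688 CPM, and PEP3_Trpm8 followed with 379, 166, 429, 391 and 437 CPM. Below PEP3_Trpm8, whose library 2 stood low, the means ran from 231 ± 123 CPM in PEP1_Dcn to 72.1 ± 10.6 CPM in NP_Nts. Neighbours in this order were taken as apart where the order held in all 5 libraries and the mean difference was larger than its SD. By that rule NF_Pvalb and NF_Calb1 were not apart, PEP2_Htr3a.Sema5a, NF2_Ntrk2.Necab2 and PEP3_Trpm8 each lay below the type before, and no neighbours from PEP3_Trpm8 downwards were apart.

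Cells that are not neurons also held Nefh UMIs, with 95.1 ± 50.2 CPM in satellite glia and 98.9 ± 31.6 CPM in endothelial cells. The levels in NP_Nts, NP_Mrgpra3 with 75.03 ± 14.5 CPM and Th with 76.7 ± 13.1 CPM were not above these in CPM. The median cell of these neuron types held 3, 6 and 4 Nefh UMIs and the median satellite glia cell 1, at different depths, and the source of these UMIs was not tested. NP_Mrgprd, with 129 ± 14.7 CPM, was higher than endothelial cells in 4 of 5 libraries, by less than the SD of the difference.

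Nefm, the middle subunit, was highest in NF_Calb1 with 5660, 6459, 5105, 4827 and 4728 CPM and in NF_Pvalb with 6106, 4314, 4408, 4250 and 4152 CPM. PEP2_Htr3a.Sema5a and NF2_Ntrk2.Necab2 were equal within the spread, at 1974 ± 164 and 1945 ± 372 CPM, and PEP3_Trpm8 had 790 ± 165 CPM. NP_Mrgprd, PEP1_Dcn, NP_Mrgpra3, PEP1_Slc7a3.Sstr2 and PEP1_S100a11.Tagln2 lay between 577 and 426 CPM. Within this set NP_Mrgpra3 and PEP1_Slc7a3.Sstr2 were apart in 5 of 5 libraries with overlapping ranges, while PEP3_Trpm8 was not apart from NP_Mrgprd. Th with 197 ± 29.4 CPM and NP_Nts with 125 ± 9.14 CPM lay below all of them, Th apart from the types on both sides and NP_Nts not apart from endothelial cells with 113 ± 61.6 CPM.

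Nefl, the core subunit, spanned the smallest range of the 3. NF_Calb1 held 7789, 6933, 7215, 6569 and 6408 CPM, NF_Pvalb 7724, 2981, 4278, 3870 and 3756 CPM, and PEP2_Htr3a.Sema5a 5924, 3550, 4714, 3671 and 3389 CPM. Library 1, with 6 cells of NF_Pvalb and 13 of PEP2_Htr3a.Sema5a, was the highest in both, and NF_Calb1 exceeded NF_Pvalb in 5 of 5 libraries. NF_Pvalb and PEP2_Htr3a.Sema5a were not apart, with the order kept in 3 of 5 libraries. NF2_Ntrk2.Necab2 with 2822 ± 442 CPM was followed by a pair of NP types, NP_Mrgprd with 2884, 2191, 2633, 2342 and 2139 CPM and NP_Mrgpra3 with 1907, 1854, 2163, 2103 and 1849 CPM. These NP types thus ranked above PEP3_Trpm8 with 1470 ± 237 CPM and above all PEP1 types, whose means lay between 815 and 1179 CPM. NP_Nts stood apart from the other NP types with 276, 230, 249, 209 and 222 CPM, close to satellite glia with 206 ± 106 CPM and endothelial cells with 199 ± 110 CPM. Between the highest and lowest neuron type the means differed 76.8-fold for Nefh, 42.8-fold for Nefm and 29.5-fold for Nefl, with the lowest mean in NP_Nts for each gene. For Nefh, NP_Nts was not apart from NP_Mrgpra3, nor NP_Mrgpra3 from Th. The Nefh mean of NP_Nts, 72.1 CPM, was also below that of satellite glia with 95.1 CPM.

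**Figure D1:**
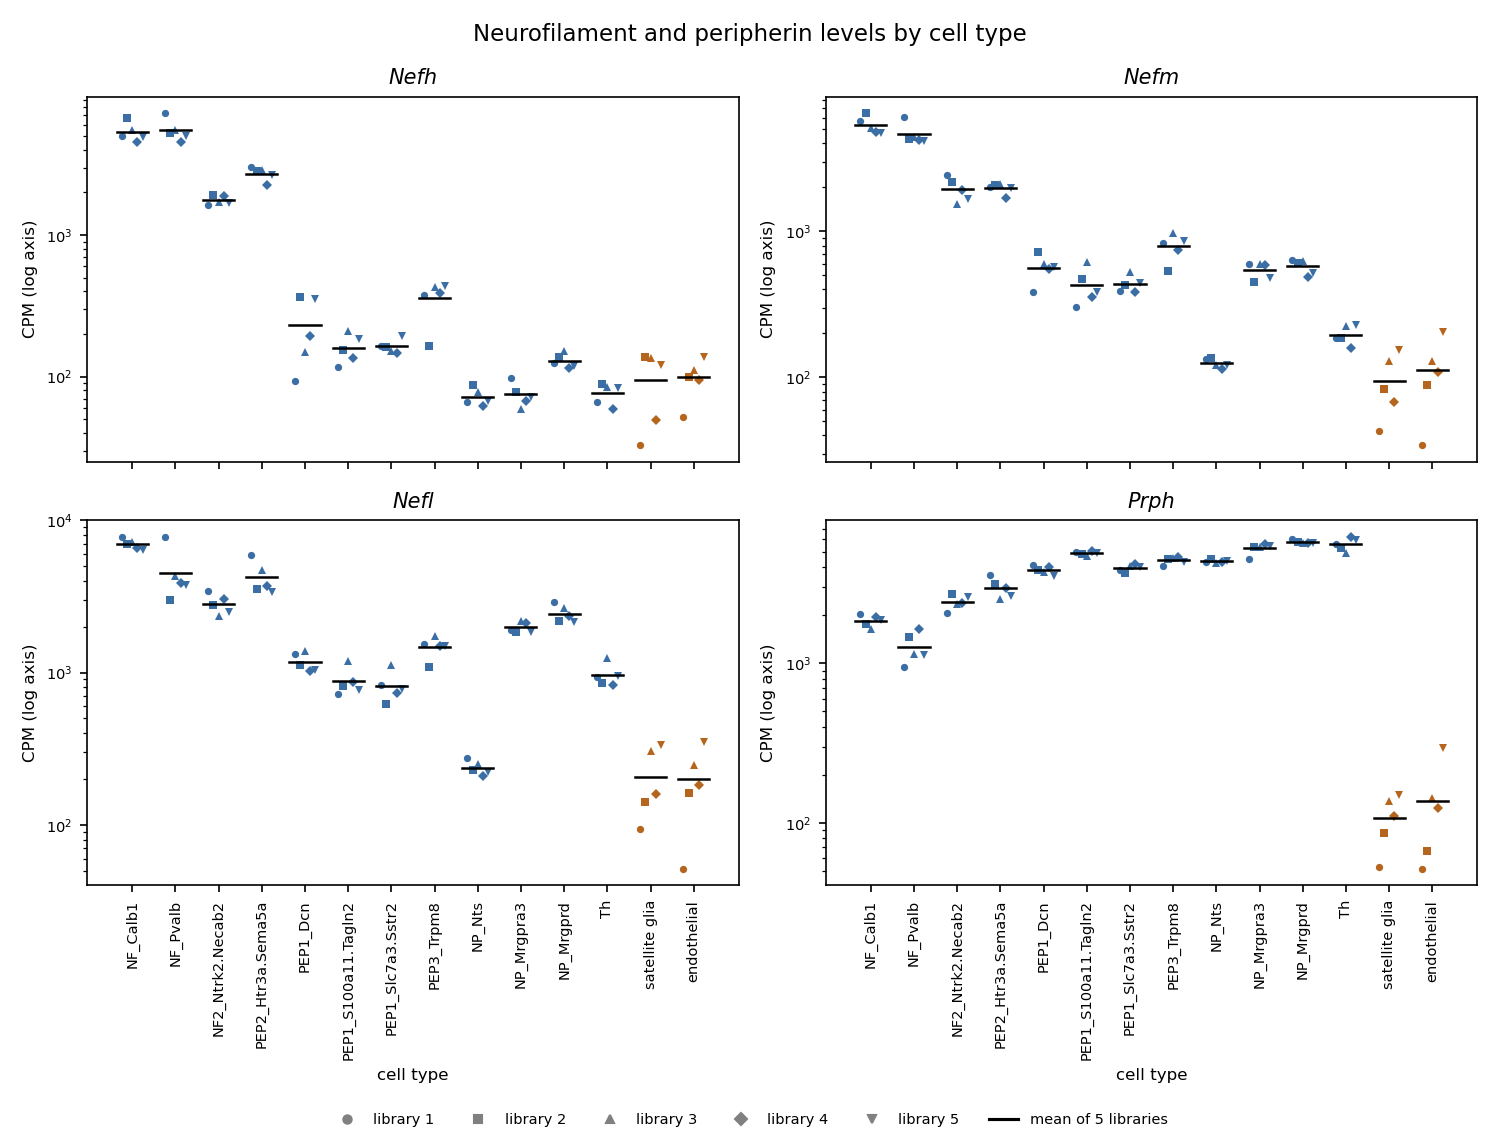
CPM of Nefh, Nefm, Nefl and Prph (log axes) in the 14 cell types, with 1 point per library, a bar for the mean of 5 libraries, neuron types in blue and the other types in brown. The neurofilament genes have their highest means in NF_Calb1 and NF_Pvalb and their lowest among neurons in NP_Nts. For Nefl, NF_Pvalb is not apart from PEP2_Htr3a.Sema5a, and for Nefh, NP_Nts is not apart from NP_Mrgpra3. Prph runs from 5786 CPM in NP_Mrgprd to 1267 CPM in NF_Pvalb and is near 100 in satellite glia.

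Between the NF and NP types, 3 of the 8 genes were called higher and 3 lower, while 32.6% of all genes tested were called. Averaged over the 3 types of each class, Nefh was 4635, 4607, 4275, 3681 and 3895 CPM in NF and 96.0, 101, 95.9, 81.4 and 86.2 CPM in NP, so that the ranges were far apart. The log2 fold change was 5.28 (SE 0.15, edgeR adjusted p = 2.9e-44), with all 5 libraries higher. For Nefm it was 3.29 (SE 0.11, edgeR adjusted p = 6.4e-40) and for Nefl 1.96 (SE 0.12, edgeR adjusted p = 4.2e-24), each again higher in 5 of 5 libraries. Prph, Ina and Vim were the genes called lower, and Gfap and Nes were near 0 in both classes. In this comparison 55.6% of the called genes were higher in NF with the scaling of edgeR and 66.4% with that of DESeq2, and DESeq2 moved the median of all genes by 0.23 on the log2 scale. Relative to the median of all genes, the changes of Nefh, Nefm and Nefl were 5.29, 3.31 and 1.98 with edgeR and 5.25, 3.27 and 1.94 with DESeq2.

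Against the PEP1 types, the NF types again had 3 genes called higher and 3 lower, beside 28.7% of all genes. The order of the 3 neurofilament genes was the same, with log2 fold changes of 4.31 for Nefh, 2.92 for Nefm and 2.21 for Nefl. The median of all genes moved by 0.10 with the scaling of DESeq2, and relative to it the changes were 4.35, 2.95 and 2.25 with either tool.

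Because a ratio of 2 genes in the same library does not depend on the total of a type, the makeup of the neurofilament genes was also compared as the log2 of CPM over Nefl CPM. Such a ratio compares types for a pair of genes and not the abundance of one gene with the other, since gene length was not taken into account. Nefh over Nefl was -0.23 ± 0.25 in the NF types and -3.56 ± 0.15 in the NP types. The difference within a library was 3.03, 3.39, 3.51, 3.37 and 3.35, with a mean of 3.33 ± 0.18 or 10.1-fold. For Nefm over Nefl it was 1.196, 1.575, 1.289, 1.335 and 1.334, with a mean of 1.35 ± 0.14 or 2.54-fold. The 5 libraries therefore all went one way for both ratios, and the exact two-sided sign-flip test gave p = 0.0625 for each (adjusted over 3 ratios 0.0625), the smallest value that 5 libraries allow. NP types were not alike in this respect, since NP_Nts had a Nefh over Nefl ratio of -1.72 ± 0.24, above NP_Mrgprd with -4.24 ± 0.21 and NP_Mrgpra3 with -4.74 ± 0.35. In NP_Nts both genes were near the level of cells that are not neurons. The ratio was -1.18 ± 0.66 in satellite glia and -0.83 ± 0.52 in endothelial cells. In NP_Mrgpra3 and NP_Mrgprd this held for Nefh only. Its mean in NP_Mrgpra3 was below those of satellite glia and endothelial cells, and NP_Mrgprd was not apart from endothelial cells. The 10.1-fold difference between NF and NP thus rests on NP levels of Nefh near those of cells that are not neurons. The source of these Nefh UMIs was not tested.

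**Figure D2:**
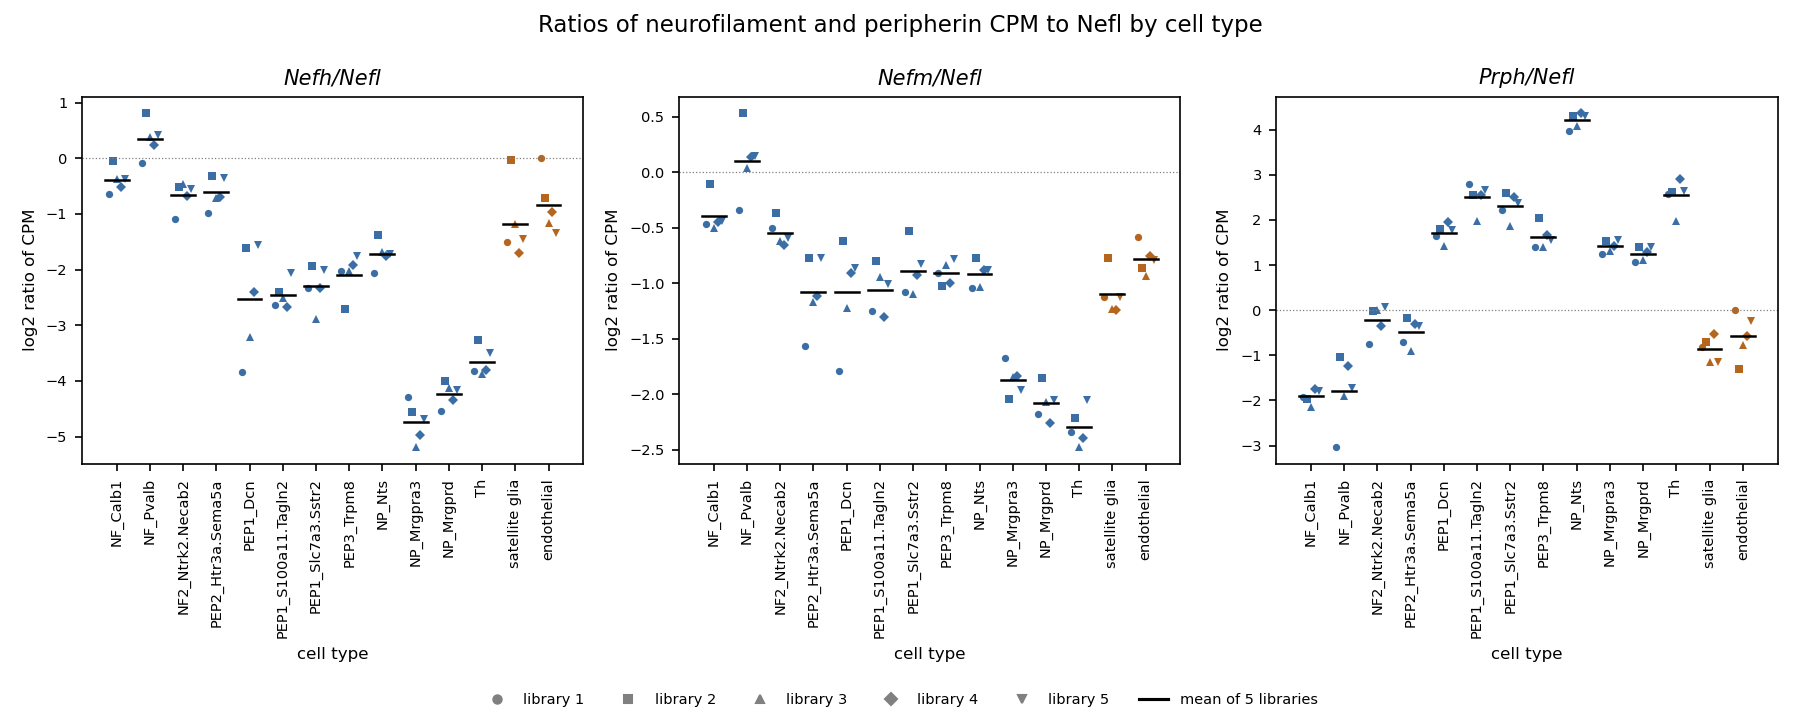
Log2 ratios of the CPM of Nefh, Nefm and Prph to that of Nefl in the 14 cell types, with 1 point per library and a bar for the mean of 5 libraries. Nefh over Nefl is lowest in NP_Mrgpra3 with -4.74 and highest in NF_Pvalb with 0.35, and Prph over Nefl is highest in NP_Nts with 4.21.

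Within the NF class the neurofilament genes set NF2_Ntrk2.Necab2 apart from NF_Calb1. Nefh, Nefm and Nefl were called lower in NF2_Ntrk2.Necab2, 3 of 8 genes beside 12.5% of all genes, and none of the 8 was called higher. The log2 fold changes were -1.53 for Nefh (SE 0.21, edgeR adjusted p = 2e-08), -1.41 for Nefm (SE 0.17, edgeR adjusted p = 5.3e-10) and -1.25 for Nefl (SE 0.21, edgeR adjusted p = 1e-06), each lower in 5 of 5 libraries with ranges apart. The median of all genes was -0.11 in this comparison, and relative to it the changes were -1.42, -1.30 and -1.14. NF2_Ntrk2.Necab2 rested on 58 cells, with 3, 6, 5, 17 and 27 per library. Between NF_Pvalb and NF_Calb1, in contrast, no neurofilament gene was called, and the only call among the 8 genes, beside 11.6% of all genes, was Ina. Nefl was lower in NF_Pvalb in 5 of 5 libraries, with a log2 fold change of -0.60 (edgeR adjusted p = 0.02) that did not reach 2-fold.

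PEP2_Htr3a.Sema5a was the type outside the NF class with the highest levels of the neurofilament genes. Compared with the PEP1 types, Nefh, Nefm and Nefl were called higher and Ina and Vim lower, 5 of 8 genes beside 18.3% of all genes. The class mean of Nefh in PEP1 was 124, 227, 170, 159 and 244 CPM, below every library of PEP2_Htr3a.Sema5a, and its log2 fold change was 3.86 (SE 0.16, edgeR adjusted p = 4.1e-33). Nefm and Nefl had log2 fold changes of 2.04 and 2.16. Nes, at 1.00 ± 1.05 CPM in PEP2_Htr3a.Sema5a and 0.245 ± 0.261 CPM in PEP1, was not called, although with the library as a block it passed both limits (log2 fold change 1.93, edgeR adjusted p = 0.0089). It rested on 18 UMIs in PEP2_Htr3a.Sema5a.

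PEP3_Trpm8 and Th showed no calls among the 8 genes, beside 17.2% of all genes for PEP3_Trpm8 against PEP1 and 21.8% for Th against NP. At an unadjusted p under 0.05, edgeR gave 6069 of all genes for PEP3_Trpm8 against PEP1 and 6685 for Th against NP. The neurofilament genes of PEP3_Trpm8 were higher than in PEP1 by less than 2-fold, with log2 fold changes of 0.95 for Nefh (edgeR adjusted p = 4.4e-06), 0.73 for Nefm and 0.62 for Nefl. Without library 2, in which the 18 cells of PEP3_Trpm8 held 166 CPM of Nefh and the highest satellite glia marker sum of that type with 709 CPM, the change of Nefh was 1.17 and was called (edgeR adjusted p = 3.4e-07). The part of the glial RNA in the low value was not tested. In Th, Nefm was lower than the class mean of the NP types in 5 of 5 libraries, with a log2 fold change of -0.88 (edgeR adjusted p = 7.8e-07), although it was higher than in NP_Nts in 5 of 5.

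Prph spanned a smaller range among neuron types than Nefh, Nefm, Nefl, Ina or Vim. In NP_Mrgprd it was 6040, 5773, 5727, 5731 and 5657 CPM, and in Th 5579, 5300, 4911, 6233 and 5967 CPM. The lowest neuron types were NF_Calb1 with 2045, 1771, 1634, 1966 and 1864 CPM and NF_Pvalb with 945, 1460, 1147, 1647 and 1135 CPM. NP_Mrgprd and Th thus lay above all libraries of NF_Calb1 and NF_Pvalb, and the highest and lowest means differed 4.57-fold, against 76.8-fold for Nefh. NP_Mrgprd, Th, NP_Mrgpra3 with 5270 ± 419 CPM and PEP1_S100a11.Tagln2 with 4908 ± 158 CPM followed one another without a step beyond the spread. PEP3_Trpm8 with 4446 ± 230 CPM and NP_Nts with 4361 ± 113 CPM formed the next step, and PEP1_Slc7a3.Sstr2 with 3964 ± 188 CPM and PEP1_Dcn with 3863 ± 233 CPM the one after. PEP2_Htr3a.Sema5a with 2984 ± 428 CPM and NF2_Ntrk2.Necab2 with 2426 ± 255 CPM, not apart from each other, lay between these and the remaining NF types.

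The class means of Prph were 1685, 1987, 1710, 2000 and 1865 CPM in NF and 4972, 5233, 5104, 5219 and 5166 CPM in NP. No library of one class reached the range of the other. The log2 fold change of NF against NP was -1.64 (SE 0.09, edgeR adjusted p = 4.7e-26), and that against PEP1 was -1.27 (SE 0.09, edgeR adjusted p = 3.3e-20), each lower in 5 of 5 libraries. PEP2_Htr3a.Sema5a was lower than PEP1 in 5 of 5 libraries by less than 2-fold, with a log2 fold change of -0.52 (edgeR adjusted p = 0.00073). Prph over Nefl was lower in NF than in NP, with differences of -3.997, -3.422, -3.518, -3.466 and -3.572 on the log2 scale within a library and a mean of -3.60 ± 0.23 or 12.1-fold. All 5 libraries went one way, and the exact two-sided sign-flip p was 0.0625 (adjusted 0.0625), the smallest possible. NP_Nts had the lowest means of the neurofilament genes among neurons, for Nefh not apart from NP_Mrgpra3. It had the highest Prph over Nefl ratio at 4.21 ± 0.17, followed by Th at 2.55 ± 0.34.

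Over the means of the 12 neuron types, log2(CPM + 1) of Nefh and Prph had a Pearson correlation of -0.918, Nefm and Prph -0.854 and Nefl and Prph -0.631. Nefh and Nefm had 0.949, Nefm and Nefl 0.920, and Nefh and Nefl 0.805. Over all 14 types the values with Prph were 0.00448 for Nefh, 0.299 for Nefm and 0.471 for Nefl. The types share the same 5 libraries, and their levels are shares of a fixed total, so these values describe the pattern and carry no test.

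The genes together made up 1.96 ± 0.17% of all UMIs in NF_Calb1 and 1.61 ± 0.34% in NF_Pvalb. PEP2_Htr3a.Sema5a had 1.197 ± 0.160%, NP_Mrgprd 0.906 ± 0.050% and NP_Nts, the lowest neuron type, 0.482 ± 0.015%. Of these shares, Nefh, Nefm and Nefl accounted for 1.77% of UMIs in NF_Calb1 and 0.0434% in NP_Nts. In endothelial cells the 8 genes held 0.168 ± 0.056%.

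Ina followed neither the neurofilament genes nor Prph. Its highest level was in NF_Pvalb, with 127, 173, 126, 149 and 143 CPM. NP_Mrgpra3 held 76.4, 87.2, 76.1, 96.0 and 91.8 CPM and NP_Mrgprd 90.1, 81.9, 76.9, 89.0 and 87.2 CPM. NF_Calb1, in contrast, held 1.43, 1.99, 0.254, 1.17 and 0.208 CPM. NF_Pvalb thus lay above every other type in all libraries, while NF_Calb1, its neighbour in neurofilament level, was near 0. PEP1_Dcn had 60.1 ± 10.0 CPM, Th 44.3 ± 6.49 CPM, PEP1_Slc7a3.Sstr2 34.2 ± 5.82 CPM, PEP3_Trpm8 34.1 ± 7.12 CPM and PEP1_S100a11.Tagln2 18.6 ± 5.88 CPM. A set of 4 neuron types was near the level of satellite glia with 1.19 ± 1.44 CPM, namely NP_Nts with 2.42 ± 1.09, PEP2_Htr3a.Sema5a with 1.44 ± 1.94, NF_Calb1 and NF2_Ntrk2.Necab2 with 0.551 ± 0.783 CPM. NP_Mrgpra3 and NP_Mrgprd were not apart from each other, nor were PEP1_Slc7a3.Sstr2 and PEP3_Trpm8, nor any neighbours from NP_Nts downwards. PEP1_Dcn and Th were not apart either, with the order kept in 4 of 5 libraries.

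The difference between NF_Pvalb and NF_Calb1 was the largest of the 8 genes among the comparisons of neuron types tested here, with a log2 fold change of 7.42 (SE 0.32, edgeR adjusted p = 4.5e-30), higher in 5 of 5 libraries. A UMI of Ina was seen in 103 of 113 NF_Pvalb cells (91.2%) and in 9 of 180 NF_Calb1 cells (5.0%), at median depths of 66720 and 77900 UMIs per cell. In satellite glia, at a median depth of 17729 UMIs, it was seen in 6 of 249 cells (2.41%), and in endothelial cells, at a median depth of 16889 UMIs, in 0 of 56, which allows a share of cells with a UMI of up to 5.36% and sets no limit on cells that express the gene. With every cell thinned to 10000 UMIs, the shares were 60.2% in NF_Pvalb, 0.0% in NF_Calb1 and 1.205% in satellite glia, and no cell was too shallow to enter. The share in NF_Calb1 was thus not above that in satellite glia after thinning. PEP2_Htr3a.Sema5a was lower than PEP1 with a log2 fold change of -4.25 (edgeR adjusted p = 5.6e-22). In the comparisons of the whole NF class, Ina was called lower, with log2 fold changes of -2.60 against NP and -2.84 against PEP1, because the fit averages log levels and NF_Calb1 and NF2_Ntrk2.Necab2 were near 0. The arithmetic class means were 48.4 ± 6.72 CPM in NF, 57.6 ± 4.29 CPM in NP and 37.6 ± 3.55 CPM in PEP1, so these class values do not describe NF_Pvalb.

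Vim, the filament subunit of glial, endothelial and mesenchymal cells, was highest in satellite glia, with 5716, 5637, 4382, 4928 and 4017 CPM. Endothelial cells held 721, 1293, 805, 740 and 1478 CPM. No neuron type reached 300 CPM in a library, so that the ranges of the 3 groups were apart. Among neurons the PEP1 types were highest, PEP1_S100a11.Tagln2 with 222 ± 37.3 CPM, PEP1_Slc7a3.Sstr2 with 209 ± 24.5 CPM and PEP1_Dcn with 185 ± 58.4 CPM, with no step beyond the spread between them. PEP3_Trpm8 with 136 ± 91.1 CPM, NP_Mrgpra3 with 109 ± 22.0 CPM and Th with 84.9 ± 13.9 CPM were not apart either, and Th lay above NP_Mrgprd with 42.6 ± 8.76 CPM. Levels were lowest in NP_Nts, with 23.7 ± 29.9 CPM and a median of 8.77 CPM over libraries, and in the NF types, with 18.04 ± 11.9 CPM in NF_Pvalb, 16.5 ± 8.97 CPM in NF_Calb1 and 8.08 ± 2.88 CPM in NF2_Ntrk2.Necab2, none of them apart from its neighbour.

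Class means of Vim were 8.44, 15.01, 22.2, 10.6 and 14.8 CPM in NF and 228, 215, 224, 195 and 164 CPM in PEP1. The classes did not overlap, and the log2 fold change was -3.92 (SE 0.25, edgeR adjusted p = 2.7e-23). Against NP, where the class mean was 58.4 ± 8.98 CPM, it was -1.92 (edgeR adjusted p = 7e-10), and PEP2_Htr3a.Sema5a against PEP1 gave -2.47 (edgeR adjusted p = 7e-10), each lower in 5 of 5 libraries. Single libraries decided 2 values. In PEP3_Trpm8, library 1 held 294 CPM from 9 cells and the others 64.9 to 126 CPM, and without it PEP3_Trpm8 was called lower than PEP1 with a log2 fold change of -1.05 (edgeR adjusted p = 0.0067). In NP_Nts, library 2 held 76.4 CPM and the others 6.55 to 19.0 CPM, and without it Th was called higher than NP with 1.04 (edgeR adjusted p = 0.00068).

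Vim in neurons was set beside Apoe, the satellite glia marker with the highest level. Vim was 6.29 ± 1.02% of Apoe in satellite glia, with a range of 5.62 to 8.05% over libraries. In PEP1_Dcn it was between 116 and 963% of Apoe, in PEP1_Slc7a3.Sstr2 between 96.5 and 743% and in PEP1_S100a11.Tagln2 between 19.4 and 140%. In NF_Calb1 the range was 6.77 to 23.4% and in NF2_Ntrk2.Necab2 6.17 to 31.6%, which reached the glial range, and in every other neuron type all libraries lay above it. The source of Vim in neurons was not tested. In endothelial cells Vim was between 11.8 and 141% of Apoe, and the 2 libraries with the highest Vim, 2 and 5, were those with the highest Apoe, at 4409 and 12492 CPM against 526 to 1791 CPM in the others; the part of glial RNA in these levels was not tested. PEP3_Trpm8 had its highest Vim in library 1, where Apoe was lowest with 27.0 CPM. NP_Nts had its highest Vim in library 2, where Apoe was highest with 344 CPM.

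Gfap, the filament of reactive glia, was almost confined to satellite glia. There it was 7.56, 55.2, 32.6, 30.9 and 52.0 CPM, from 169 UMIs in all, with library 1 the lowest. The 12 neuron types held 11 UMIs in 8 of 3047 cells, and endothelial cells held 0 in 56. A Gfap UMI was seen in 59 of 249 satellite glia cells (23.7%), and in 42 (16.9%) after thinning. Against endothelial cells, which were at 0 in every library, satellite glia were at least 11.6-fold higher over the floor of 3 UMIs in the group. Against the neurons, satellite glia were called higher (edgeR adjusted p = 8.4e-24) in 5 of 5 libraries, and no fold change is given because 8 of the 12 neuron types held 0 UMIs. Outside satellite glia the mean of Gfap was at most 0.183 CPM, so Gfap passed the filter on low counts through satellite glia. Its calls thus describe that level and are no independent support.

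Nes, the subunit of progenitor, glial and endothelial cells, was 250, 279, 214, 162 and 237 CPM in satellite glia and 206, 198, 81.2, 84.4 and 64.7 CPM in endothelial cells. The ranges overlapped, with satellite glia higher in 5 of 5 libraries. No neuron type had a mean above 1.00 CPM, and 76 of 3047 neurons held 102 UMIs in all. The share of cells with a Nes UMI was 82.7% in satellite glia and 66.1% in endothelial cells, and 73.1 and 55.4% after thinning. In neurons it was highest in NF_Calb1 with 5.56%, and 1.11% after thinning; the median depths were 77900 UMIs in NF_Calb1, 17729 in satellite glia and 16889 in endothelial cells.

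**Figure D3:**
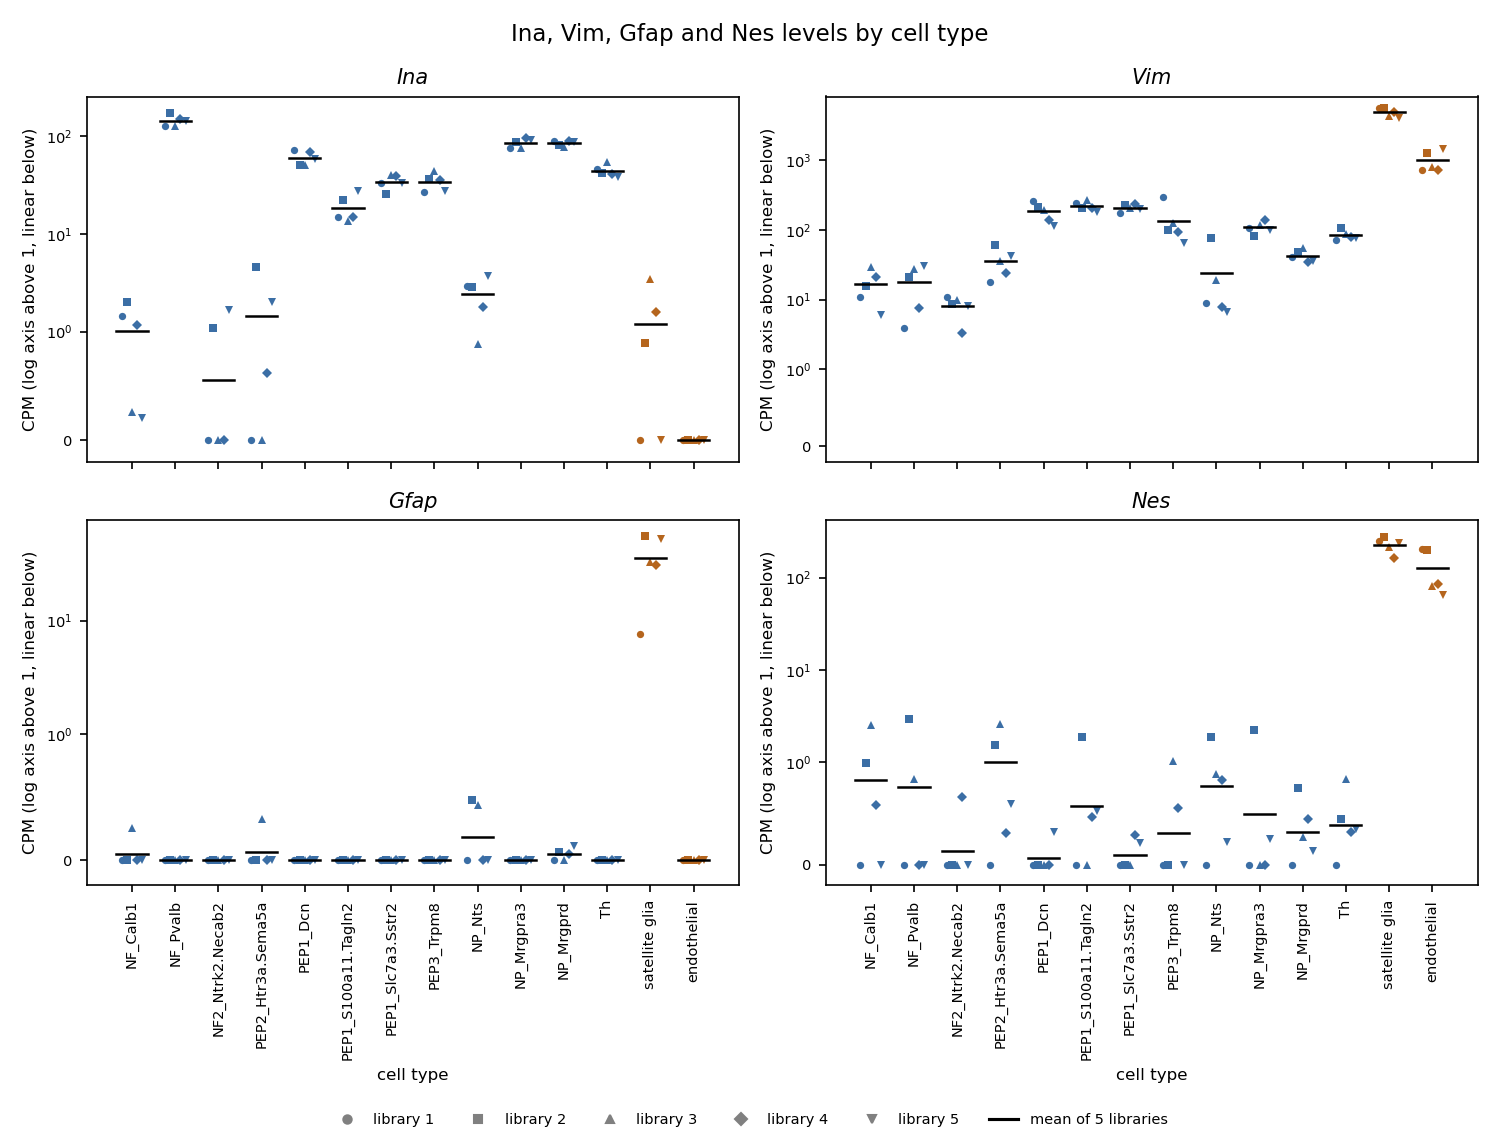
CPM of Ina, Vim, Gfap and Nes (log axes above 1, linear below) in the 14 cell types, with 1 point per library, a bar for the mean of 5 libraries, neuron types in blue and the other types in brown. Ina is highest in NF_Pvalb with 144 CPM and near 0 in NF_Calb1, and Vim, Gfap and Nes are highest in satellite glia.

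Between satellite glia and the mean of the neuron types all 8 genes were called, 3 higher and 5 lower, beside 50.7% of all genes. The 3 higher were Vim with a log2 fold change of 6.75 (SE 0.16, edgeR adjusted p = 1.7e-49), Gfap, and Nes with 9.24 (SE 0.19, edgeR adjusted p = 8e-54). Gfap passed the filter on low counts through satellite glia and Nes through satellite glia and endothelial cells. The calls of Gfap and Nes are therefore no independent support for their higher level there. The 5 lower were Prph with -4.74, Nefh with -1.74, Nefm with -2.77, Nefl with -2.73 and Ina with -2.84. These are averages of log levels, and the arithmetic mean of the neuron types was 1387 ± 125 CPM for Nefh, 3894 ± 116 CPM for Prph and 42.6 ± 1.99 CPM for Ina, against 95.1, 108 and 1.19 CPM in satellite glia. The median of all genes was -0.11 here, and leaving out the filter on low counts moved it by -0.15. Relative to the median, Prph was at -4.62 and Nefh at -1.63. Endothelial cells were called lower than satellite glia for Vim, Gfap and Nes, 3 of 8 genes beside 28.5% of all genes, and none of the 8 was called higher. Vim had a log2 fold change of -2.50 (SE 0.34, edgeR adjusted p = 5e-09) and Nes -1.06 (SE 0.27, edgeR adjusted p = 0.00082). The median of all genes was -0.47 in this comparison and moved by 0.38 with the scaling of DESeq2 and by 0.17 without the filter on low counts, and 35.5% of called genes were higher with edgeR and 48.8% with DESeq2. Relative to the median, Vim was at -2.04 and Nes at -0.59 with edgeR, and at -2.22 and -0.80 with DESeq2. The call of Gfap was lost with DESeq2 (DESeq2 adjusted p = 0.02). That of Nes was lost with DESeq2 (log2 fold change -0.89, DESeq2 adjusted p = 0.26), with sums of at least 10 cells (-0.98), without library 3 (-0.92) and without library 5 (-0.94), and its range over all alternatives stayed below 0.

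UMIs of the neuronal genes in satellite glia and endothelial cells were measured beside neuron markers as a share of the level in all neurons of the same library pooled, in which NP_Mrgprd had the most cells. In satellite glia the share was 9.72 ± 5.12% for Nefh, 8.51 ± 4.86% for Nefm and 8.68 ± 4.84% for Nefl, while it was 2.40 ± 0.94% for Prph. The neuron markers lay at 6.71 ± 3.77% for Snap25, 5.88 ± 2.60% for Uchl1, 6.28 ± 2.64% for Tubb3, 3.42 ± 1.75% for Elavl4 and 2.04 ± 1.34% for Rbfox3. The share was larger for Nefh than for Prph in 5 of 5 libraries, with 2.57, 13.2, 8.85, 8.09 and 15.9% for Nefh and 1.16, 1.88, 3.45, 2.32 and 3.20% for Prph. Endothelial cells gave 10.9 ± 5.84% for Nefh, 10.6 ± 7.31% for Nefm, 8.66 ± 5.46% for Nefl and 3.01 ± 2.09% for Prph, beside 7.22 ± 2.58% for Uchl1, 6.48 ± 4.07% for Tubb3, 4.83 ± 2.98% for Snap25, 1.75 ± 3.26% for Rbfox3 and 1.66 ± 1.06% for Elavl4. The endothelial share of Rbfox3 rested on 2 UMIs, with 7.49% in library 1, 1.26% in library 2 and none in the others. A Nefl UMI was seen in 93.2% of satellite glia cells, a Prph UMI in 80.3%, a Nefm UMI in 73.5% and a Nefh UMI in 65.9%. After thinning these shares were 79.1, 63.1, 55.4 and 48.2%. In NP_Nts, at a median depth of 53136 UMIs, Nefh was seen in 93.8% of cells as deposited and in 46.2% after thinning, which is below satellite glia. Th with 52.6% and NP_Mrgpra3 with 51.9% after thinning were close to satellite glia, while all cells of NF_Calb1, NF_Pvalb, NF2_Ntrk2.Necab2 and PEP2_Htr3a.Sema5a held a Nefh UMI after thinning.

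Levels also varied from cell to cell within a type. The middle 90% of PEP2_Htr3a.Sema5a cells spanned 577 to 5169 CPM of Nefh, with a coefficient of variation of 54.2%, while NF2_Ntrk2.Necab2 cells spanned 1186 to 2402 CPM with 20.4%. Nefh in PEP1_Dcn had a median of 126 CPM and a 95th percentile of 911 CPM, so that a minority of cells held much of the total. For Prph the coefficient lay between 19.2% in NP_Nts and 50.4% in NF_Pvalb among neuron types. Coefficients were not compared between genes, since a coefficient includes counting error and the median NP_Nts cell held 3 Nefh and 235 Prph UMIs. Across the cells of a type in libraries with at least 20 of them, Spearman correlations were computed on CPM. In PEP2_Htr3a.Sema5a the median over 4 libraries was 0.78 for Nefh and Nefm and 0.72 for Nefh and Nefl, and in NF_Calb1 it was 0.60 and 0.70. Some types had values nearer 0, with 0.14 and -0.03 in PEP1_Slc7a3.Sstr2 and 0.13 and 0.19 in NP_Nts, each over 4 libraries. Nefh and Prph had no common sign over types, with -0.68 in NF_Pvalb over 2 libraries, -0.24 in NF_Calb1 over 4, 0.30 in NF2_Ntrk2.Necab2 over 1 and 0.24 in PEP1_Slc7a3.Sstr2 over 4. The correlation of Nefh with the depth of the cell was -0.37 in NF_Pvalb and -0.26 in NF_Calb1, and that of Prph 0.34 and 0.20, so that depth moved with both genes, and its part was not tested. Cells of a library share its RNA background, and these values are descriptions only.

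The other cytoskeletal genes were read from 4 lists, compared between NF and NP. Of 9 tested genes for other intermediate filaments, 4 were called higher in NF and 2 lower, with a median log2 fold change of 0.56 against -0.02 for all genes. Iffo2 and Iffo1, genes of intermediate filament family orphans, had log2 fold changes of 4.84 and 1.80. Iffo2 was 10.4 ± 1.32 CPM in NF, below satellite glia with 40.4 ± 14.9 CPM and endothelial cells with 45.4 ± 27.4 CPM. Lmna, which encodes the A-type lamins of the nuclear envelope, had -1.49, and Lmnb1, a B-type lamin, had 1.32 at 2.13 ± 0.55 against 0.884 ± 0.7101 CPM. Lmnb1 was higher in NF in 4 of 5 libraries with overlapping ranges, and PEP3_Trpm8 had a higher mean than the NF types with 7.05 ± 3.34 CPM. Of 18 microtubule genes, 4 were called higher and 5 lower, with a median of 0.07. Map2, which binds microtubules in dendrites and cell bodies, was 105 ± 19.5 CPM in NF and 0.976 ± 0.595 CPM in NP (log2 fold change 6.84), and Tuba4a, an alpha-tubulin gene, had 3.40. Tubb2b, a beta-tubulin gene, had -4.53 and Stmn1, whose product destabilises microtubules, -2.82.

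Spectrins and ankyrins, which form the membrane skeleton, had 4 genes called higher and 1 lower of 11 tested, with a median of 0.73. Sptb, an erythrocyte-type beta-spectrin gene, had a log2 fold change of 4.72 and Sptbn4, a beta-spectrin gene of nodes and initial segments, 2.48. Sptb had means of 99.8 CPM in NF_Pvalb, 35.0 CPM in NF2_Ntrk2.Necab2 and 16.0 CPM in NF_Calb1, beside 40.7 CPM in PEP3_Trpm8. Ank3, which encodes ankyrin-G, had -1.33. Of 20 genes for linkers, transport and turnover of filaments, 5 were called higher and 3 lower, with a median of 0.37. Kif5c, a kinesin motor gene, had 1.42 and Cryab, a small heat shock protein gene, 1.70. The highest mean of Kif5c was in Th, outside both classes, with 1074 ± 126 CPM, before NF_Calb1 with 937 ± 161 CPM. Cryab was 1708 ± 280 CPM in satellite glia, and its NF level came mainly from NF_Calb1 with 218 ± 73.4 CPM. Dynll1, a dynein light chain gene, had -1.86. The share called was 32.6% of all genes in this comparison, and each list also held genes that were not called.

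Genes most like each of the 8 were named by the Pearson correlation of log2(mean CPM + 1) over types, among 11123 genes that reached 10 CPM in a type. Over 14 types, Nefh was most like Lgi3 (r = 0.966), Rasl10b (0.965) and Atp2a2 (0.960), Nefm like Nefl (0.942), Gpr158 (0.931) and Chpf2 (0.928), and Nefl like Mfsd6 (0.946), Nefm (0.942) and Nrg3 (0.939). Prph was most like Tubb5, a beta-tubulin gene, with r = 0.991, then Thoc7 (0.985) and Fbxl2 (0.985). Ina had 1 close match, Gm2694 (0.947), before Cfdp1 (0.857) and Sec22a (0.833). Vim was most like Nlrc5 (0.951), Parp9 (0.949) and Hnrnpa3 (0.943), Gfap like Olfml1 (0.999), Slc6a11 (0.998) and Gpnmb (0.997), and Nes like Vamp5 (0.995), Col6a3 (0.994) and Nfkb2 (0.993). Satellite glia were the highest type of Gfap and Nes. Over the 12 neuron types and 11113 genes, Nefh was again most like Lgi3 (0.980), followed by Slc16a6 (0.979) and Aars (0.977). Nefm was most like Nefh (0.949), Hoxb9 (0.945) and 6330409D20Rik (0.942), and Nefl like Acp1 (0.939), Rhof (0.929) and Dbi (0.928). Prph was most like Tubb5 (0.977), Klf7 (0.969) and 1110038F14Rik (0.968), and Ina like Gm2694 (0.948), G6pc3 (0.873) and Bsg (0.842).

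In RefSeq on GRCm38.p6, Nefl at chr14:68083863-68089095 on the plus strand and Nefm at chr14:68119545-68125004 on the minus strand are neighbours, 30449 bases apart, with 1 annotated gene, Gm19216, between them. Nefh lies at chr11:4938754-4948064 on the minus strand, Gfap at chr11:102887336-102897200 on the minus strand, Prph at chr15:99053579-99058978 on the plus strand and Ina at chr19:47014681-47025327 on the plus strand. Vim lies at chr2:13574311-13582826 and Nes at chr3:87971093-87980451, both on the plus strand. The annotation of the Nefm locus in another gene set reaches across Nefl on the opposite strand, and Nt5c2 overlaps the start of Ina on the opposite strand. The count table names a strand for each gene.

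Promoter sequences of 5 of the 8 genes, Prph, Ina, Vim, Gfap and Nes, were read from RefSeq on GRCm38.p6. For Prph the start used there, 99055174, lies inside the gene span given above. The 100 bases before the start used for each gene were searched for TATAAA on both strands, a motif of TATA boxes that 1827 of 32851 such windows (5.56%) held. It was found in Prph, 31 bases before that start, and in Vim, 32 bases before its start, and not in these windows of Ina, Gfap and Nes. Prph and Vim, the pair with opposite levels in neurons and satellite glia, are shown 5′ to 3′ on the plus strand with the motif in capitals, at chr15:99055074-99055173 and chr2:13574211-13574310.
Prph: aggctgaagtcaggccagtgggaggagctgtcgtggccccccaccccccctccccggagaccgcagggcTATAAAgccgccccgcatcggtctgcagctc
Vim: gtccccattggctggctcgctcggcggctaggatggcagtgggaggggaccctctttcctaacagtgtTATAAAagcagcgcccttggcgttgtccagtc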

How the data were processed

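Lumbar dorsal root ganglion cells of 5 mice were sequenced with a 10x 3′ kit. The authors counted UMIs with Cell Ranger on mm10, kept cells with Seurat, clustered them and named the types, according to their methods, and deposited 1 table of raw UMI counts per gene and cell with 1 type name per cell. From these counts UMIs were summed per type and library, and CPM are scaled to that sum, mitochondrial genes included. The 4 table entries that name no gene held 143 UMIs (6.37e-05%) and were left out. All deposited cells were used, 188 of which had a mitochondrial share over 10%; no doublet caller was run, and no batches were named. Median depth per cell was 72840, 70328, 52499.5, 56004 and 56260 UMIs in libraries 1 to 5, with at least 13103 UMIs in every cell.

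All 14 types in 5 libraries entered 1 fit of edgeR 4.0.16 (TMM, filterByExpr, quasi-likelihood test) in R 4.3.3, checked on simulated data with 200 changed genes. Sums of the same library come from the same mouse, which pairs them; their deviations from the type means correlated with r between 0.0136 and 0.315 over 45 comparisons and libraries, 28 of them over 0.1. Alternatives were DESeq2 1.42.0, no filter, a replicate block, sums of at least 10 cells, leaving out each library, means over cells and cells with at most 10% mitochondrial UMIs. Python 3.11.15 with numpy 2.4.6, pandas 2.3.3, scipy 1.17.1 and matplotlib 3.10.9 gave the descriptions. Of each of the 4 lists, the 4 called genes with the largest absolute log2 fold changes between NF and NP are named, apart from some that are not reported here. The 8 genes and the lists were chosen with earlier results of these data known.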

Additional observations from a re-analysis of the deposited data

Results flagged for a closer look

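With 5 libraries, Dixon's rule for a value far from the others flagged 9 of 83 groups tested; chance alone flags about 1 in 20 groups. Nefh in PEP3_Trpm8 was low in library 2 with 166 CPM from 18 cells, the others between 379 and 437 CPM. In NF_Pvalb, library 1 with 6 cells was high for Nefm with 6106 CPM, the others between 4152 and 4408 CPM, and for Nefl with 7724 CPM, the others between 2981 and 4278 CPM. Nefm in PEP2_Htr3a.Sema5a was low in library 4 with 1694 CPM from 40 cells, the others between 1988 and 2104 CPM. Nefl in Th was high in library 3 with 1240 CPM from 38 cells, the others between 831 and 949 CPM. Prph in NP_Mrgpra3 was low in library 1 with 4544 CPM from 4 cells, the others between 5345 and 5617 CPM. Vim was high in PEP3_Trpm8 in library 1 with 294 CPM from 9 cells, the others between 64.9 and 126 CPM, and in NP_Nts in library 2 with 76.4 CPM from 36 cells, the others between 6.55 and 19.0 CPM. The log2 ratio of Prph over Nefl, NF minus NP, was low in library 1 with -3.997, the others between -3.57 and -3.42. Table entries that name no mouse gene held 143 UMIs, which were not analysed.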

How the results depend on the processing

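All 81 counts of called genes stayed within 1.5 times the first fit, all 56 highest levels kept within 1 SD, and all 21 ratio values kept direction and side; the differences ran from 3.27 to 3.41 for Nefh over Nefl, 1.29 to 1.38 for Nefm over Nefl and -3.72 to -3.49 for Prph over Nefl. Of the fold changes of the 8 genes, 568 values were unchanged, 25 in 13 results reversed, 5 passed the limits newly and 5 no longer did. No reversed result had been called, and the cause was not tested. With DESeq2, reversed log2 fold changes were 0.46 for Gfap and 0.21 for Nes between NF and NP, -0.0306 for Ina between PEP3_Trpm8 and PEP1, and 0.094 for Nefh and 0.0053 for Nefl between endothelial cells and satellite glia. Without the filter they were -0.0486 for Ina between PEP3_Trpm8 and PEP1 and -0.0077 for Prph between endothelial cells and satellite glia. With sums of at least 10 cells they were 0.0061 for Nes between NF and NP, -0.0136 for Nefh between NF_Pvalb and NF_Calb1, and -0.13 for Prph between endothelial cells and satellite glia. With 1 library left out, the ranges that crossed 0 were -0.84 to 0.20 for Nes between NF and NP, -0.13 to 0.16 for Ina and -0.26 to 1.49 for Nes between PEP3_Trpm8 and PEP1, -0.53 to 0.58 for Nes between Th and NP, -0.0164 to 0.198 for Nefh, -0.27 to 0.66 for Vim and -2.26 to 0.38 for Nes between NF_Pvalb and NF_Calb1, and -1.59 to 0.73 for Ina between NF2_Ntrk2.Necab2 and NF_Calb1. Between endothelial cells and satellite glia they were -0.334 to 0.0372 for Nefh, -0.049 to 0.224 for Nefm and -0.17 to 0.21 for Prph. With sums of at least 10 cells Vim was also called lower in PEP3_Trpm8 than in PEP1 (-1.07), and with DESeq2 Gfap was no longer called between endothelial cells and satellite glia (DESeq2 adjusted p = 0.02). The replicate block changed the call of Nes between PEP2_Htr3a.Sema5a and PEP1 and no other call among the 8 genes; called genes numbered 3891 with it between NF and NP, beside 3873. Thinning moved the share of cells with a UMI from 91.2 to 60.2% for Ina in NF_Pvalb and from 82.7 to 73.1% for Nes in satellite glia.

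Types with 3 to 6 cells in a library (NF2_Ntrk2.Necab2, NF_Pvalb, PEP1_Dcn, NP_Mrgpra3 and endothelial cells) give single values of low precision. The types were named from the same cells, and with 5 libraries the exact tests cannot fall below 0.0625. RNA counts of cell bodies do not measure filament protein or axons.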
